A study of Mus musculus with 4 samples.

Results

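The proteasome is the barrel-shaped protease that degrades proteins tagged with ubiquitin, and its genes were followed here in mouse SVEC cells, an established endothelial line, cultured with lipopolysaccharide (LPS), a component of the Gram-negative bacterial cell wall. Members were all genes with a single symbol in the array annotation that began with Psm, a letter from a to g and a number. This gave 45 of the 11138 genes measured. Of these, 8 encode alpha subunits of the 20S core, 7 its beta subunits (Psmb1 to Psmb7), 5 the immunoproteasome group (Psmb8, Psmb9, Psmb10, Psme1 and Psme2b), 6 the ATPases and 12 the non-ATPase (Psmd) group of the 19S regulatory particle, 2 the activators Psme3 and Psme4, and 3 the Psmg chaperones of 20S assembly. The Psmd group includes Psmd9 and Psmd10, which are assembly factors of the 19S particle rather than subunits. The remaining 2 match the naming rule but encode no part of the proteasome or its assembly: Psmb5-ps is a pseudogene, and Psmc3ip encodes a meiotic recombination factor. Psme2 itself was not analysed here. Psme2b is a retrocopy of it, and the array names do not show which of these nearly identical transcripts an oligonucleotide binds.

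In the 20S core, alpha rings form the gate and beta rings carry the active sites, of which Psmb5 provides the chymotrypsin-like, Psmb6 the caspase-like and Psmb7 the trypsin-like one. Interferons are known to induce Psmb8, Psmb9 and Psmb10, which take the places of Psmb5, Psmb6 and Psmb7 and change the peptides made for presentation on MHC class I, and Psme1 and Psme2, which form the PA28 activator cap. The 19S particle recognises ubiquitin chains, removes them, and unfolds the substrate with its ring of Psmc ATPases.

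LPS-treated cells were compared with control cells after 4 h and after 24 h, and no genotype or other treatment is given. The dose, 50 ng/ml, is named for 3 of the 4 arrays. Amplified RNA of treated and control cells was hybridised together in 2 dyes, with LPS RNA in Cy5 on the first array of each time (array 1) and in Cy3 on the second (array 2). Separate cultures are not mentioned, so each time counts as 1 RNA pair measured with the dyes exchanged. SDs are therefore technical, between 2 arrays, and a single time has no p-value. In bulk RNA, fewer cells with a transcript and less of it per cell cannot be told apart. Values are log2 ratios of LPS over control relative to the median spot of the array. That direction is likely rather than stated: it takes the dyes from the labels and assumes the usual form of such a ratio, Cy5 over Cy3, and under the opposite convention all signs reverse. Over all spots the unturned arrays correlated at r = -0.23 for 4 h and -0.042 for 24 h, which does not bear on that choice. A gene was called higher or lower when its mean was at least 2-fold (1 on the log2 scale) and each array at least 1.5-fold the same way. A ratio carries no expression level, so the presence of endothelial transcripts could not be checked. The medians of endothelial, leukocyte and mural or fibroblast marker lists (11, 10 and 9 genes) lay at -0.01, 0.01 and 0.04 at 4 h and at -0.06, 0.17 and -0.03 at 24 h. Single markers were called at 4 h as well, where 8.74% of all genes were called higher and 5.77% lower. Of 9 mural or fibroblast genes, 4 (44.4%) were called higher (Pdgfra 1.92, Dcn 1.70, Acta2 1.48, Col1a1 1.20) and 1 (11.1%) lower (Lum -1.40). Of 11 endothelial genes, 1 (9.09%), the cadherin gene Cdh5, was lower at -3.47 ± 2.12. At 24 h, where 1.68% of all genes were called higher, Pdgfra (1.14) and the leukocyte marker Coro1a (1.05) were higher. Their part in the proteasome values was not tested. By array the share of spots at a ratio of exactly 1 ran from 6.29% to 16.4%.

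After 4 h with LPS, 12 of 45 proteasome genes (26.7%) were called higher, where 8.74% of all genes were, and 2 (4.44%) were called lower, where 5.77% of all genes were. Higher were Psma1, Psma6, Psmb1, Psmb3, Psmb5, Psmc3, Psmc4, Psmd2, Psmd8, Psmd14, Psme2b and the pseudogene Psmb5-ps. Lower were the catalytic subunit gene Psmb6 and the chaperone gene Psmg3. The largest ratio among calls was that of Psmb1, a structural beta subunit, at 9.62-fold. After 24 h only Psmd8 and Psmc3ip were called higher (4.44%, against 1.68% of all genes) and 0 were called lower (against 0.799%). With each array left out in turn, 2 and 3 were higher and 0 and 1 lower, with the shares of all genes not counted. Psmc3ip was not called without array 2, and Psmd8 not without array 1. Psmd8, a lid subunit of the 19S particle, was the single member called at both times, as 0.413% of all genes were. Without the pseudogene and Psmc3ip, 11 of 43 members were called higher at 4 h (25.6%, against 8.74% of all genes). At 24 h 1 of these was called higher (2.33%, against 1.68% of all genes).

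All 4 h directions are relative to the median spot, and abundant transcripts stood above it on these arrays. A list of 26 such transcripts outside translation and proteolysis, among them H3f3b at 5.79, Ppia at 5.76, Atp5b at 5.06 and Gapdh at 4.39, had a 4 h median of 1.94, with 16 called higher and 1, Ftl1, lower; at 24 h its median was 0.06 and none of its genes was called. Centring each array on that list moved the means over both arrays down by 1.90 at 4 h and by 0.08 at 24 h for all genes. At 4 h it left Psmb1 as the only member called higher, against 0.925% of all genes, and put 28 of 45 members (79.0% of all genes) among the lower ones. The part of transcript abundance in the 4 h values was not tested, since the table holds no intensities.

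**Figure D1:**
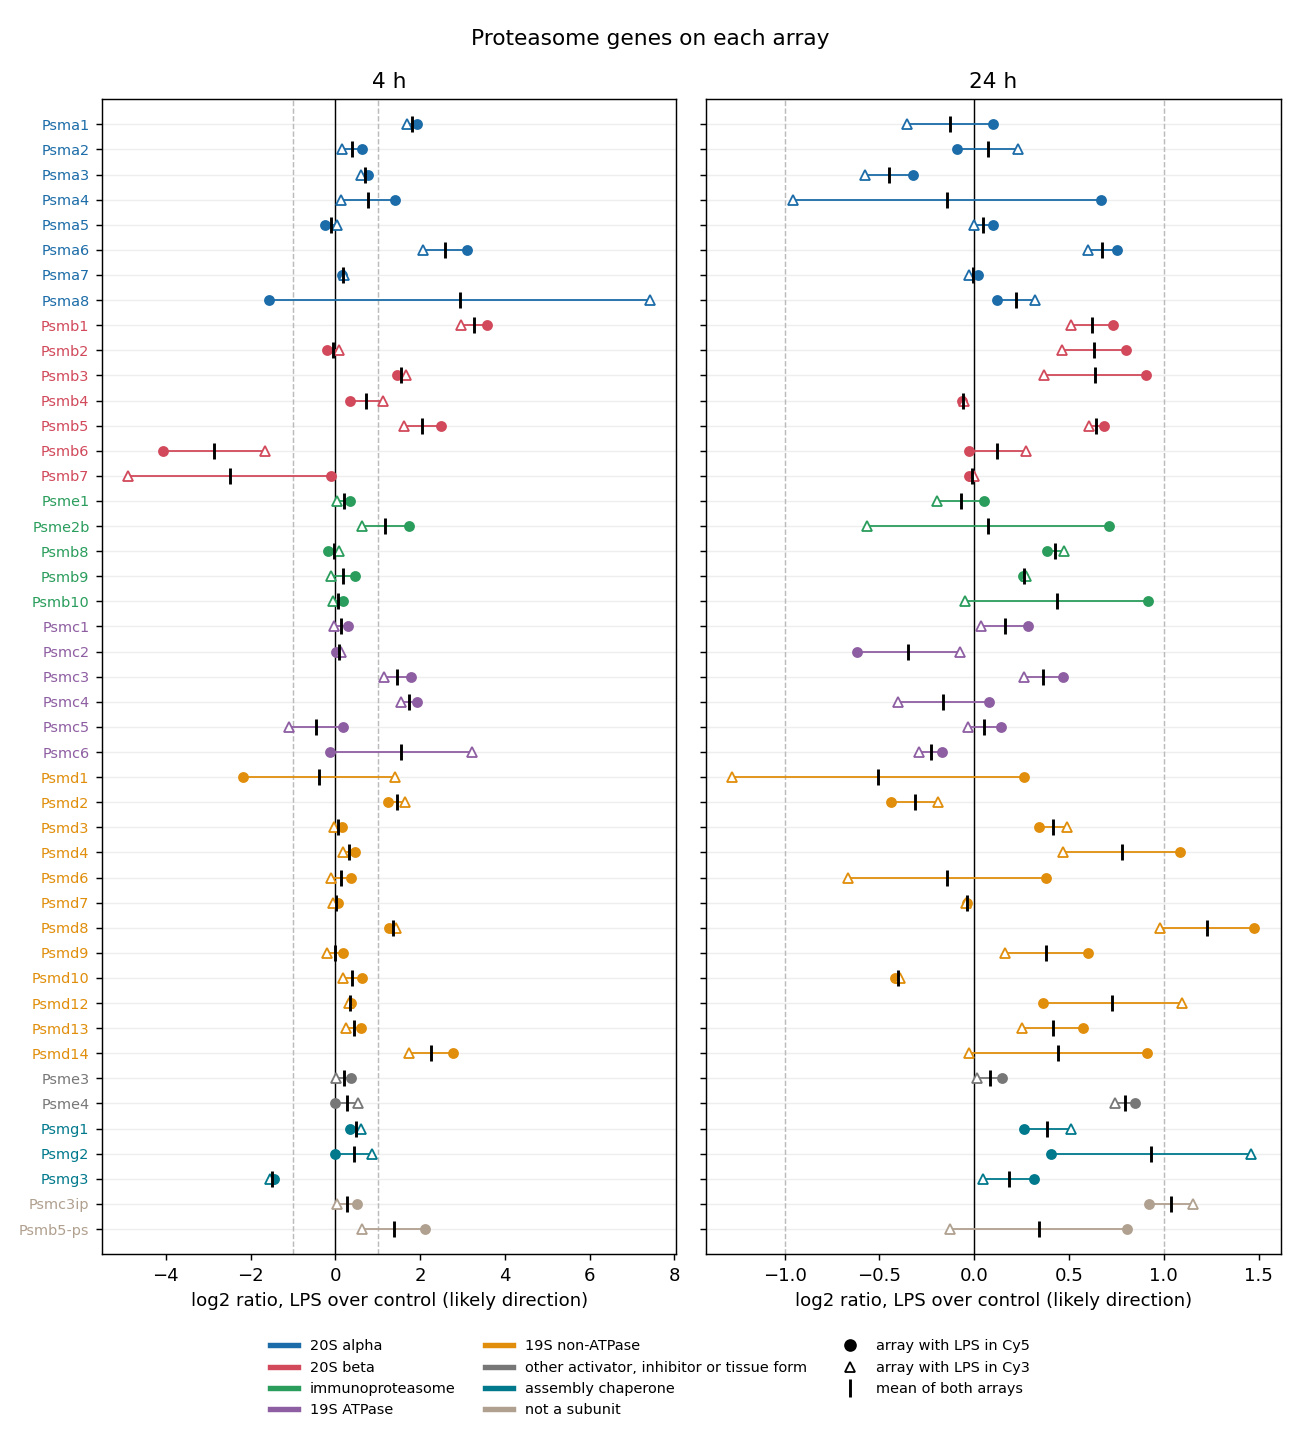
Log2 ratio of LPS over control (likely direction) for each of 45 proteasome genes on each array at 4 h and 24 h, coloured by class; filled circles are arrays with LPS in Cy5, open triangles arrays with LPS in Cy3, black ticks their mean, and dashed lines 2-fold; the horizontal scales of the panels differ. At 4 h Psmb1 and Psma6 lie above 2 on both arrays and Psmb6 below -1.5 on both, while the arrays of Psma8 and Psmb7 lie far apart. At 24 h only Psmd8 and Psmc3ip have a mean past 1. With centring on abundant transcripts the 4 h means would sit 1.90 lower. Of the 4 h means called higher, only those of Psmb1, Psma6, Psmb5 and Psmd14 would then stay above 0.

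Among the alpha subunits, Psma6 stood highest of those called at 4 h, with log2 ratios of 3.12 and 2.08 on the arrays and a mean of 2.60 ± 0.73 (SD, 2 arrays), or 6.05-fold. At 24 h its arrays lay at 0.75 and 0.60. Psma1 had 4 h ratios of 1.92 and 1.70 (mean 1.81 ± 0.16) and 24 h ratios of 0.10 and -0.36. For both genes the lower 4 h array lay above the higher 24 h array. The other alpha subunits called neither way at 4 h were Psma2, Psma3, Psma4, Psma5 and Psma7, with means from -0.11 to 0.77, and Psma8. Psma8, which encodes the alpha subunit of the testis form of the proteasome, read -1.56 on array 1 and 7.43 on array 2. Its mean of 2.93 ± 6.36 is therefore smaller than its spread, and at 24 h its arrays agreed near 0, at 0.12 and 0.32. The median over the 8 alpha genes was 0.73 at 4 h (-1.17 with centring on abundant transcripts) and 0.02 at 24 h, beside medians of 0.00 and 0.02 over all genes.

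At 4 h the beta subunits differed most among themselves of the 5 main classes, with means from -2.86 to 3.27. Psmb1 had 4 h ratios of 3.57 and 2.96 (mean 3.27 ± 0.44) and 24 h ratios of 0.73 and 0.51. Psmb3, another structural beta subunit, had 4 h ratios of 1.45 and 1.67 and 24 h ratios of 0.91 and 0.37. Psmb5, the chymotrypsin-like site, read 2.49 and 1.62 at 4 h (mean 2.05 ± 0.61) and 0.68 and 0.60 at 24 h. These genes were above 0 on all 4 arrays, with the 4 h values the larger.

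Psmb6, the caspase-like site, went the other way at 4 h. It read -4.06 and -1.66 (mean -2.86 ± 1.70, 7.27-fold lower), with its spots between -4.45 and -1.61. At 24 h the arrays lay at -0.03 and 0.27. Psmb7, the trypsin-like site, read -0.10 on array 1 and -4.89 on array 2 at 4 h, so that its low mean rests on array 2, and it was not called. Its duplicate spots gave identical values on array 1 at both times and on array 2 at 24 h, and the cause was not tested. Of the others, Psmb4 had a 4 h mean of 0.73 ± 0.54 and Psmb2 one of -0.05 ± 0.21. At 24 h the means of Psmb1, Psmb2, Psmb3 and Psmb5 lay between 0.62 and 0.64. Those of Psmb4, Psmb6 and Psmb7 lay between -0.06 and 0.12, and all were below 2-fold. A grouping was not tested, and on array 2 the genes lay closer, with Psmb3 at 0.37 and Psmb6 at 0.27. The beta median was 0.73 at 4 h (0.35 on array 1, 1.12 on array 2, -1.17 with centring on abundant transcripts) and 0.62 at 24 h, the highest of the 5 main classes at that time.

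The pseudogene Psmb5-ps followed its parent gene, at 2.11 and 0.64 after 4 h and 0.81 and -0.13 after 24 h. An oligonucleotide drawn from the pseudogene may bind the Psmb5 transcript, so these are not separate measurements of expression. Psmb5-ps was not called without array 1, with scaled arrays, with quantile normalization or when every spot had to be 1.5-fold.

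The interferon-inducible replacements of the catalytic subunits lay near 0 at 4 h. Psmb8 read -0.17 and 0.10, Psmb9 0.47 and -0.10, and Psmb10 0.17 and -0.06. At 24 h Psmb8 read 0.38 and 0.47 (mean 0.43 ± 0.07, 1.35-fold) and Psmb9 0.26 and 0.27 (mean 0.26 ± 0.01, 1.20-fold). Both were thus above 0 on both 24 h arrays, but below the 2-fold rule. The spots of Psmb8 on array 2 differed, 1 at a ratio of exactly 1 and the other at 0.95, and with exact ratios of 1 taken as missing its 24 h mean was 0.68. Psmb10 read 0.92 and -0.05 at 24 h, and its 2 oligonucleotides gave 24 h means of 0.75 and 0.12. Its spots on array 1 at 4 h ran from -2.28 to 2.32, so its mean of 0.05 hides spots that disagree. Being above 0 on both 24 h arrays was common: 30.3% of all genes were.

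At 4 h the standard form and its replacement did not overlap on the arrays for Psmb5 (mean 2.05) and Psmb8 (-0.03), nor for Psmb6 (-2.86) and Psmb9 (0.19). Psmb7 and Psmb10 lay close together on array 1, at -0.10 and 0.17, and apart on array 2 alone. At 24 h the standard form was the higher of the first pair by means, at 0.64 against 0.43. It was the lower of the others, at 0.12 against 0.26 and at -0.01 against 0.43, all within 1.6-fold of control. That order in the others rests on array 1. On array 2 Psmb6 and Psmb9 both lay at 0.27, and Psmb7, with its spots at a ratio of exactly 1, lay above Psmb10 at -0.05.

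**Figure D2:**
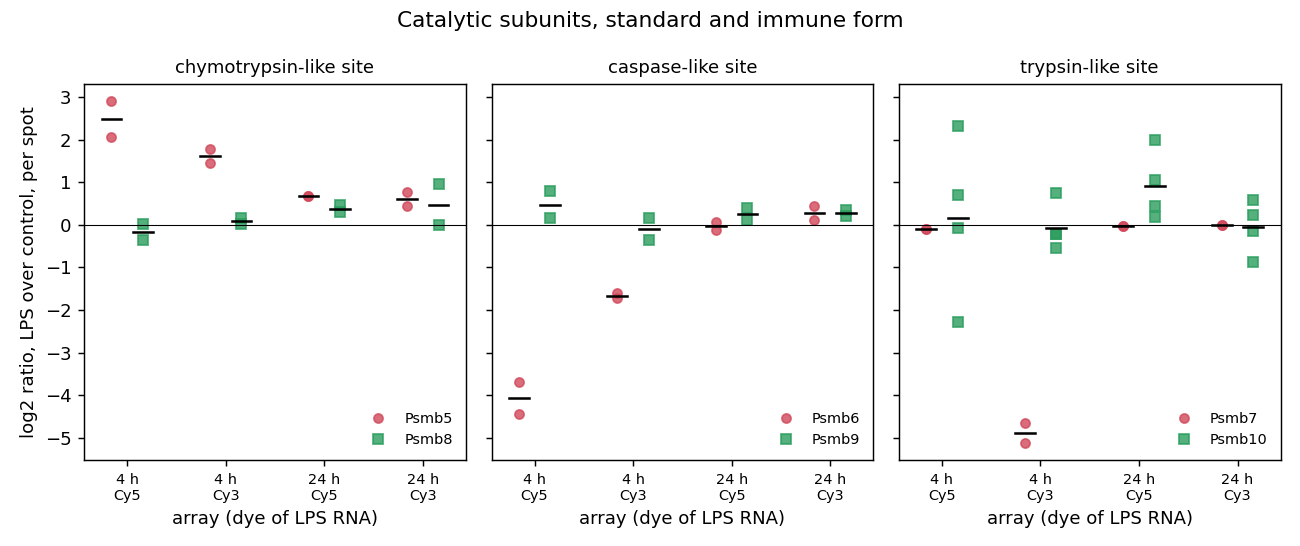
Log2 ratio of LPS over control (likely direction) for each spot of the standard catalytic subunit genes (circles) and their immunoproteasome replacements (squares) on the 4 arrays, 1 panel per active site, with black bars for the mean over spots. At 4 h Psmb5 lies above 1.4 and Psmb6 below -1.6 on all spots. Psmb7 is low only on the array with LPS in Cy3, and the spots of Psmb10 spread from -2.28 to 2.32 on 1 array. Centring on abundant transcripts would shift each array by its own constant and lower the 4 h means over both arrays by 1.90. Those means would stay above 0 for Psmb5 (0.15) and fall below 0 for the replacements.

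Of the PA28 genes, Psme1 stayed below the rule, at 0.35 and 0.04 after 4 h and 0.05 and -0.20 after 24 h. Psme2b was called higher at 4 h, at 1.73 and 0.63 (mean 1.18 ± 0.78), but its oligonucleotides disagreed in size: 1 gave a 4 h mean of 2.01 and the other 0.35. At 24 h it read 0.71 and -0.56, where 1 spot of array 2 was at -3.86. Psme2b was no longer called without array 1, with arrays scaled to 1 spread, with quantile normalization, or under either demand on spots (every spot 1.5-fold the same way, or spots within 1 of each other). Without it, 0 of 4 immunoproteasome genes were called at either time. The median over the 5 genes was 0.19 at 4 h (0.35 on array 1, 0.04 on array 2, -1.72 with centring on abundant transcripts) and 0.26 at 24 h; leaving out array 1 at 24 h gave -0.05. In the same cells a reference list of 12 genes, chosen because earlier results had them high on these arrays and so no independent evidence, had medians of 1.42 and 2.32. It includes the interferon-induced GTPase gene Ifi47, at 2.54 ± 1.13 after 24 h. Stat2, an interferon signalling factor, was called higher at both times, at 1.14 and 1.41. At 4 h it was the only 1 of 17 listed regulators of proteasome genes called higher (5.88%, against 8.74% of all genes). At 24 h 2 of the 17 were (11.8%, against 1.68% of all genes). With centring on abundant transcripts the 4 h mean of Stat2 falls below 0.

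Promoter sequences are shown for 5 genes that carry the contrast: the standard subunits Psmb5 and Psmb6, which went opposite ways at 4 h, the replacement Psmb8 and the activator Psme1, which were not called, and Psmd8, called at both times. They are RefSeq sequences of build GRCm38.p6 from 250 bases before to 50 bases after the annotated start, written 5′ to 3′ in the direction of the gene. Capitals mark matches on either strand to the antioxidant response element TGACNNNGC, which Nfe2l1 and Nfe2l2 bind, the interferon-stimulated response element (GAAA, any 2 bases, GAAA), the gamma-activated site TTCNNNGAA and the CCAAT box CCAAT. No matches overlapped in these windows.
Psmb5, chr14:54617946-54618245, minus strand: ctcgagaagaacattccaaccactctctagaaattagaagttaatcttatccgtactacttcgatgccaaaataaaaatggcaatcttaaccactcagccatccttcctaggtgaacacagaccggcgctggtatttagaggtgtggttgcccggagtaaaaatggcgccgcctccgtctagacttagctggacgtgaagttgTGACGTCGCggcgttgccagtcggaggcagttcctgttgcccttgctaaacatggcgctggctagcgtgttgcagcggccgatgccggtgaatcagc
Psmb6, chr11:70525107-70525406, plus strand: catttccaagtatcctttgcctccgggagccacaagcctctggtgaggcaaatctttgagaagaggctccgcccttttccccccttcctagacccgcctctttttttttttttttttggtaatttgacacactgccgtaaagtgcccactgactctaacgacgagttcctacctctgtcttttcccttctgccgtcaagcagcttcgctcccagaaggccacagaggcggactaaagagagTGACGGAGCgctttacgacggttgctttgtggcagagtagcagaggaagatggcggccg
Psmb8, chr17:34197945-34198244, plus strand: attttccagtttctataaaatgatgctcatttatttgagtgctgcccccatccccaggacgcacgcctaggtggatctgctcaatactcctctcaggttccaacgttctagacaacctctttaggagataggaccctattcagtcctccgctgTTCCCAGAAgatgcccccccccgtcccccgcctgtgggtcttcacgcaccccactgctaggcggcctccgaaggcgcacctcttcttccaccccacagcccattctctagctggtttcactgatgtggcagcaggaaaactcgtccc
Psme1, chr14:55578244-55578543, plus strand: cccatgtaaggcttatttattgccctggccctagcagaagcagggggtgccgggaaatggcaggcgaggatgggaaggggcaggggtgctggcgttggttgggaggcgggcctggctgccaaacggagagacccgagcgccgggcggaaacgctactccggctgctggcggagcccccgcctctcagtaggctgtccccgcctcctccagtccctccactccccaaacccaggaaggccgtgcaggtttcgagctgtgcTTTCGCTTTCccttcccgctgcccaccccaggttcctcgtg
Psmd8, chr7:29180624-29180923, minus strand: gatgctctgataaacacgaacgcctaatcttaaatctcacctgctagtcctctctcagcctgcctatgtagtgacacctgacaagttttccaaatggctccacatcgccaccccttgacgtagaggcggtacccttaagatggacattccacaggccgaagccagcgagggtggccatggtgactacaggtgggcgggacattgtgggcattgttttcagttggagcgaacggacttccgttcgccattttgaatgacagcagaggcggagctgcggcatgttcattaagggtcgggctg

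Psmb5 and Psmb6, at 2.05 and -2.86 after 4 h, both carry the antioxidant response element, beginning at -47 and -9 from the start counted as 0. Psmb8 carries a gamma-activated site at -97 and Psme1 an interferon-stimulated response element at 9, and none of the letters searched occurs in the Psmd8 window. Promoters were in the RefSeq table for 36 of 45 members (38 windows). The antioxidant response element was in 15.8% of these windows and in 12.4% of all 32851 promoters. The interferon-stimulated response element was in 10.5% (4 of 38) and 3.44%, the gamma-activated site in 7.89% and 8.30%, and the CCAAT box in 36.8% and 37.4%. The 4 genes with the interferon-stimulated response element were Psmb3, Psmd4, Psmd9 and Psme1. Of these only Psme1 belongs to the immunoproteasome group, where 1 of 5 windows had the element. Among the members called higher at 4 h, Psmb5 alone of 9 genes with a window had the antioxidant response element, and 4, Psma1, Psma6, Psmb3 and Psmd14, had the CCAAT box. A match is a description of letters and not a measured binding site.

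Among the 19S ATPases, which unfold the substrate, Psmc4 read 1.93 and 1.55 at 4 h (mean 1.74 ± 0.27) and 0.08 and -0.40 at 24 h. Psmc3 read 1.79 and 1.14 at 4 h and 0.47 and 0.26 at 24 h. Both were called at 4 h and dropped below the rule at 24 h. Psmc6 had a 4 h mean of 1.55 ± 2.37, but array 1 read -0.13 and array 2 3.23, and on array 2 its spots lay at 6.38 and 0.07. Psmc5 had 0.18 and -1.09, while Psmc1 and Psmc2 had 4 h means of 0.13 and 0.08. The ATPase median was 0.80 at 4 h, where array 1 alone gave 0.24 and centring on abundant transcripts -1.10, and -0.05 at 24 h.

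Of the 12 Psmd genes, 3 were called higher at 4 h (8.74% of all genes) and 0 lower (5.77% of all genes). Psmd14, the deubiquitinase that cuts ubiquitin chains from substrates, read 2.78 and 1.73 at 4 h (mean 2.25 ± 0.74) and 0.91 and -0.03 at 24 h. Psmd2, a scaffold subunit of the base, read 1.25 and 1.65 at 4 h and -0.44 and -0.19 at 24 h, so that its times did not overlap; at 4 h its spots on array 1 lay at 0.08 and 2.41, and it was not called under either demand on spots. Psmd8 read 1.26 and 1.44 at 4 h (mean 1.35 ± 0.12, 2.55-fold) and 1.48 and 0.98 at 24 h (mean 1.23 ± 0.35, 2.35-fold). Its lowest spot was at 1.08 at 4 h and at 0.94 at 24 h, all on the same side. With centring on abundant transcripts its 4 h mean became -0.55.

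Psmd1, the other large scaffold, had arrays of opposite sign at both times, at -2.18 and 1.41 after 4 h and 0.26 and -1.28 after 24 h. Its spots on array 1 at 4 h lay at -4.56 and 0.19. The ubiquitin receptor Psmd4 read 0.47 and 0.18 at 4 h and 1.09 and 0.47 at 24 h, a 24 h mean of 0.78 ± 0.44. Psmd12 had a 24 h mean of 0.73 ± 0.52 that depends on 1 spot at 2.24. The assembly factors Psmd9 and Psmd10 lay at -0.01 and 0.40 at 4 h and at 0.38 and -0.40 at 24 h. The rest (Psmd3, Psmd6, Psmd7 and Psmd13) had means from 0.01 to 0.43 at 4 h and from -0.15 to 0.42 at 24 h. The non-ATPase median was 0.34 at 4 h (-1.56 with centring on abundant transcripts) and 0.40 at 24 h, where array 2 alone gave 0.07.

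The nuclear activators Psme3 and Psme4 were not called; Psme4, which encodes the PA200 cap, read 0.85 and 0.74 at 24 h (mean 0.79 ± 0.07). Among the chaperones that assemble the alpha ring, Psmg3 read -1.46 and -1.55 at 4 h (mean -1.50 ± 0.06) and 0.32 and 0.05 at 24 h. Its 2 oligonucleotides had the same sign at 4 h but gave -2.44 and -0.56. The other Psmg chaperone genes, Psmg1 and Psmg2, lay at 0.48 and 0.43 at 4 h and at 0.39 and 0.93 at 24 h. The last had array 2 at 1.46 and a spot at 2.62. Psmc3ip, which is no subunit, read 0.92 and 1.16 at 24 h.

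Counted by sign alone, 26 of 45 members (57.8%) were above 0 on both 4 h arrays, against 31.2% of all genes, and 22 (48.9%) on both 24 h arrays, against 30.3%. Below 0 on both arrays were 3 members at 4 h (31.6% of all genes) and 7 at 24 h (25.6% of all genes). The median over all members was 0.35 at 4 h and 0.18 at 24 h. By array it was 0.37 and 0.21 at 4 h and 0.32 and 0.04 at 24 h, and centring on abundant transcripts turned the 4 h median to -1.55 and left that of 24 h at 0.10. Across the 45 members the arrays of a pair correlated at r = 0.25 at 4 h and 0.41 at 24 h, beside 0.48 and 0.10 across all genes; the points share their arrays, and genes are not independent replicates. The arrays differed in sign for 16 members at each time.

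**Figure D3:**
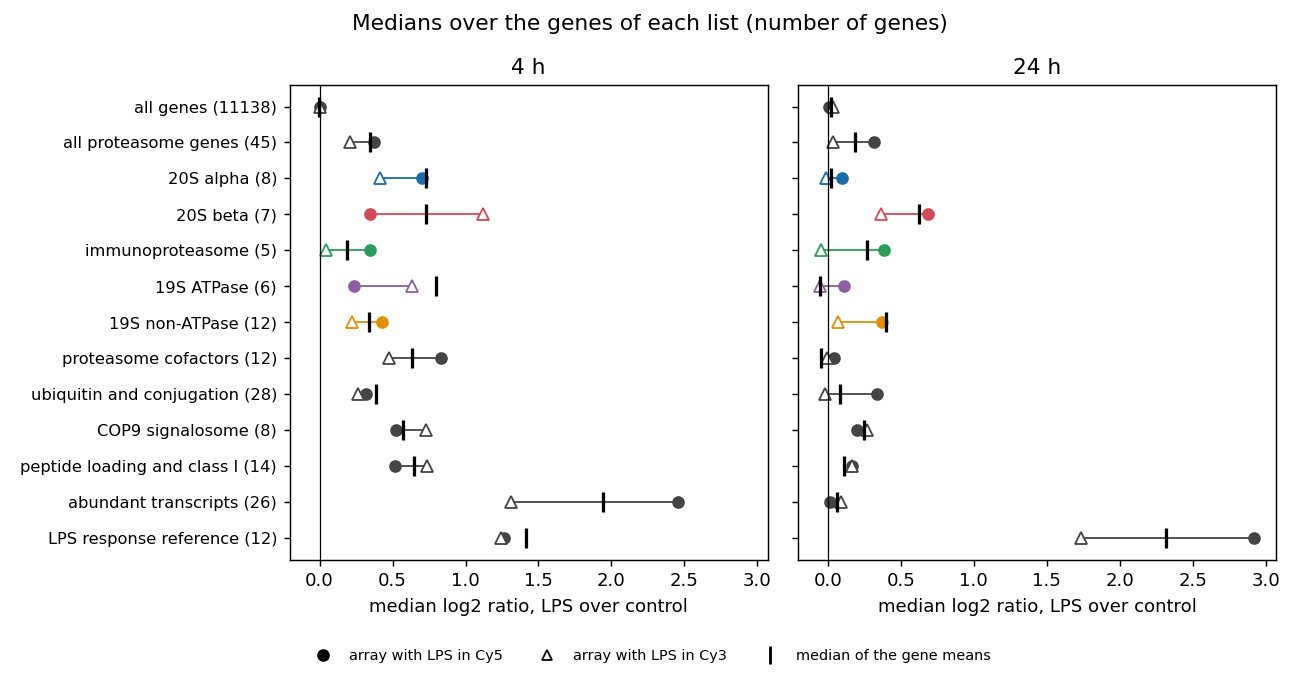
Median log2 ratio of LPS over control (likely direction) over the genes of each list at 4 h and 24 h; filled circles are medians on the array with LPS in Cy5, open triangles on the array with LPS in Cy3, black ticks the median of the gene means, and numbers in brackets the genes. At 4 h the alpha, beta and ATPase classes lie at 0.73 to 0.80, the immunoproteasome at 0.19 and the abundant transcripts at 1.94, so centring on the last puts all proteasome classes below 0; at 24 h the beta class is highest at 0.62 and the reference list lies at 2.32.

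Compared between the times, 10 of 45 members (22.2%) were lower at 24 h than at 4 h, where 9.99% of all genes were, by a rule that asked for a difference of at least 1 in the means and no overlap of the arrays. They were Psma1, Psma3, Psma6, Psmb1, Psmb5, Psmc3, Psmc4, Psmc6, Psmd2 and Psmd14. The differences ran from -2.65 for Psmb1 to -1.10 for Psmc3. That of Psmc6, -1.78, rests on array 2: it was -0.04 on array 1 alone and -3.52 on array 2, where 1 spot stood at 6.38 and its duplicate at 0.07. Both arrays above 0 at 4 h and both below 0 at 24 h were seen for 5 members (6.41% of all genes), and the reverse for 1 (7.42% of all genes). For Psma3, called at neither time, the ratios were 0.78 and 0.62 at 4 h and -0.32 and -0.58 at 24 h. Higher at 24 h were 3 (6.67%, against 8.23% of all genes): Psmb6 by 2.98, Psmb7 by 2.48 and Psmg3 by 1.69, all of which had been below 0 at 4 h. The Psmb7 difference also rests on array 2, being 0.07 on array 1 alone and 4.89 on array 2, and with exact ratios of 1 taken as missing 2 genes were left. With centring on abundant transcripts 0 members were lower and 28 higher at 24 h, since the 4 h means of all genes shift down by 1.90. The share of all genes under that centring was not counted for differences between times. None of the 5 immunoproteasome genes met the rule in either direction, with differences from -1.11 for Psme2b to 0.46 for Psmb8.

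**Figure D4:**
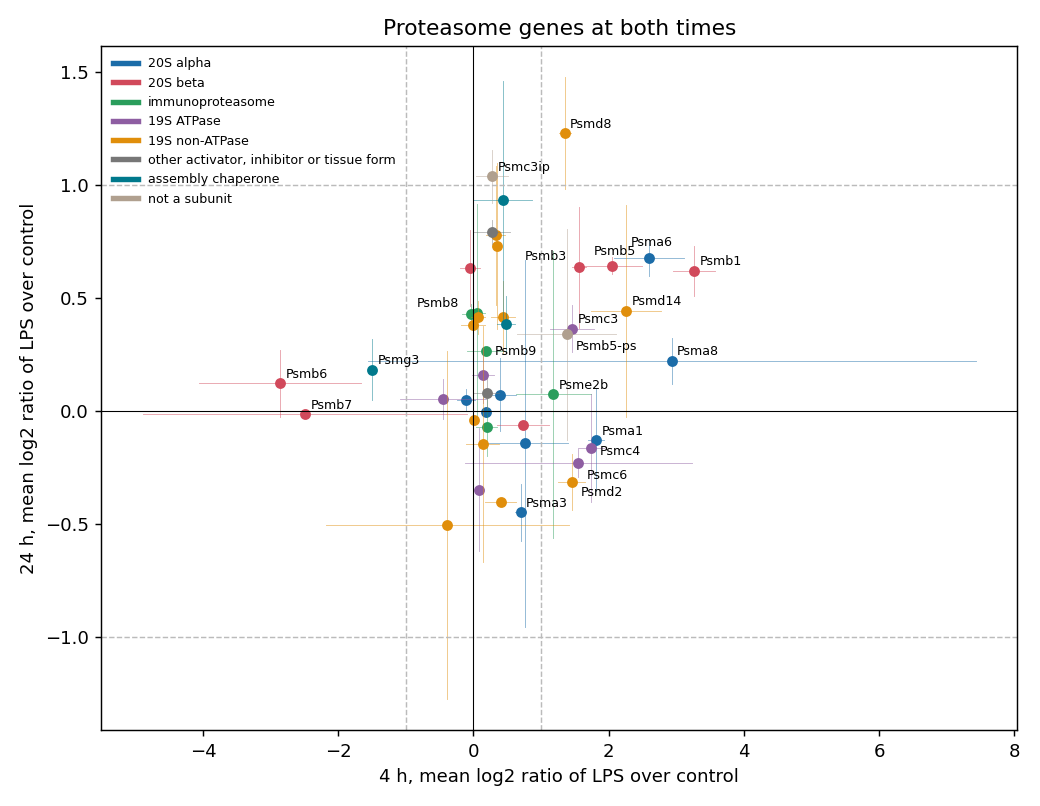
Mean log2 ratio of LPS over control (likely direction) at 24 h against that at 4 h for 45 proteasome genes, coloured by class; thin lines span the 2 arrays of each time and dashed lines mark 2-fold. Psmd8 is the 1 gene past 2-fold at both times, Psmb1, Psma6, Psmb5 and Psmd14 lie far to the right with 24 h means of 0.44 to 0.68, and Psmb6 and Psmb7 lie far to the left with 24 h means near 0; with centring on abundant transcripts the points would sit 1.90 further left.

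A response shared by both times was fitted with limma on the 2 pair means of all genes, which leaves 1 residual degree of freedom. The fit takes the times as repeats of 1 response. Its residual is therefore the difference between the times, and its p-values do not measure the spread between replicates. After Benjamini-Hochberg adjustment 0 members and 0 of all genes passed 0.05; at an unadjusted limma p under 0.05 there were 3 members and 513 genes, 4.61% of those tested. The members were Psmd8, Psmb3 and Psmb5. Psmd8 led with a mean of 1.29 and a limma adjusted p of 0.76. It was above 0 on 4 of 4 arrays. The smallest limma adjusted p of any member lay between 0.44 and 0.88 over the alternatives tried. Treating the 4 arrays as independent samples also gave 0 members after adjustment, with 12 at an unadjusted p under 0.05 (11.2% of all genes), and 9 with a dye term (9.64% of all genes).

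Genes that work with the proteasome were counted from lists, to be read against the shares of all genes: 8.74% higher and 5.77% lower at 4 h, and 1.68% higher and 0.799% lower at 24 h. Of 12 proteasome cofactors, 3 were called higher at 4 h (25.0%, against 8.74%) and 1 at 24 h (8.33%, against 1.68%), and 0 lower. Sem1, a small 19S subunit outside the naming rule, lay at 1.71 ± 0.57 at 4 h, and Vcp, the segregase that extracts ubiquitinated proteins, at 1.61 ± 1.22. The shuttle factor gene Ubqln4 lay at 1.53 ± 0.53 at 4 h and 1.36 ± 0.09 at 24 h. Uchl5, a deubiquitinase of the 19S particle, lay at 0.82 and 1.14 and missed the demand on each array. The cofactor medians were 0.63 and -0.05.

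Of 28 genes for ubiquitin conjugation, 7 were higher (25.0%, against 8.74%) and 3 lower (10.7%, against 5.77%) at 4 h, and 0 higher and 1 lower at 24 h, with medians of 0.39 and 0.08. The conjugating enzyme gene Ube2g1 lay at 3.57 ± 1.85 at 4 h and Rbx1, the RING subunit of cullin ligases, at 1.88 ± 1.23, while the cullin gene Cul5 lay at -2.21 ± 0.63. Ube2l6, which conjugates ISG15, read -3.21 and -4.30 at 4 h and 1.05 and 0.03 at 24 h. Of 8 genes of the COP9 signalosome, a complex related to the 19S lid, 2 were higher at 4 h, Cops5 at 2.62 ± 1.22 and Cops4 at 1.11 ± 0.02; Gps1 lay at 0.80 and Cops6 at 0.65, and the list medians were 0.57 and 0.25.

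Of 14 genes of peptide loading and MHC class I, 5 were higher at 4 h (35.7%, against 8.74% of all genes), among them H2-Q7 at 3.62 ± 0.69 and H2-D1 at 2.94 ± 0.85. H2-K1 lay at 3.58 ± 2.39 and H2-Q1 at 1.81 ± 0.62, and class I genes are so alike that their signals may be mixed. The fifth was the chaperone gene Canx at 1.05. At 24 h 0 were called, and the medians were 0.65 and 0.11. Of 17 regulators of proteasome genes, Stat2 was higher at 4 h, and Stat2 and Nfe2l1 at 24 h, with medians of -0.16 and 0.05. Nfe2l1, the factor known to raise proteasome genes when proteolysis falls short, read 0.55 and 0.44 at 4 h and 1.32 and 0.94 at 24 h (mean 1.13 ± 0.26). Foxo4 and Irf2 lay at -1.47 ± 1.63 and -1.42 ± 1.44 at 24 h, with the arrays far apart. With centring on abundant transcripts, 4 h means in these lists between 0 and 1.90 turn in sign.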

How the data were processed

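The authors deposited 1 table of log2 ratios of the 2 dyes for 32448 spots on 4 arrays; the scale was read from the values, since 2 raised to their size is a multiple of 0.01 (within 0.02 of that step) in 99.96% or more of each array. Per the labels, RNA was amplified, and Operon V1 long oligos are named for the 4 h arrays. Scanner, background correction and normalization: not given in the sources used here. Column medians are 0; intensities were not used. The number of arrays limits the precision. Spots with 1 gene symbol (24344) were averaged per gene; 98 had several symbols and 8006 none. The Entrez identifiers of all 45 members were in the RefSeq gene table, and 0 symbols differed. Each array was centred on its median and reversed arrays were turned in sign. The mean of a time's arrays cancels a dye effect. Of the members, 42 have 1 oligonucleotide, spotted in duplicate, and 3 have 2.

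limma 3.58.1 (R 4.3.3) served for the shared fit, the rest ran in Python 3.11.15, and the call rule and the fit were tested on simulated data. Members, lists and rules were chosen with earlier results of these data known. Values by array are given for immunoproteasome genes, Psmb5, Psmb6, Psmb7, members past a rule and members whose oligonucleotides disagree. Of each other list, up to 4 genes with the largest means were set by rule. Most of those named are given as means, and some are not named. Psma8, Psmd1, Psmd4, Psmd12, Psme4, Psmg1, Psmg2, Psmc5, Canx and Ftl1 were singled out after their values were seen. Alternatives were deposited values, other centring, scaling, quantile normalization, other folds, median over spots, exact ratios of 1 as missing and single arrays; 2 on spot agreement were added after seeing the data.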

Additional observations from a re-analysis of the deposited data

Results flagged for a closer look

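For 6 members both arrays of 4 h had the opposite sign to both arrays of 24 h; the difference between times was not tested, since each time is 1 RNA pair. Above 0 at 4 h and below 0 at 24 h were 5 of 45 members, a pattern shown by 6.41% of all genes, and the reverse was seen for 1, shown by 7.42% of all genes. Psmd2, the scaffold subunit, had means of 1.45 at 4 h and -0.31 at 24 h, and Psma3, an alpha subunit, 0.70 and -0.45. Psmd10, also known as gankyrin, had 0.40 and -0.40. Psmb4, at 0.73 and -0.061, and Psmc2, at 0.082 and -0.35, had 1 time close to 0. The chaperone gene Psmg3 ran the other way, at -1.50 and 0.18. With groups of 2 arrays, no single array could be set apart as an outlier.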

How the results depend on the processing

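No paired analysis was possible because replicate numbers mark the dye orientation and each time holds 1 RNA pair. Single arrays aside, 340 comparisons of 57 single values left 276 within the spread between arrays, moved 50 and reversed 14. A change of sign was counted as reversed only for values called by a rule. All 14 fell under centring on abundant transcripts, which subtracts 1 constant per array. That centring left 1 member higher (0.925% of all genes) and 28 lower (79.0% of all genes) at 4 h, and 1 higher at 24 h (1.36% of all genes). Between times, 28 members were higher and 0 lower at 24 h than at 4 h, with the share of all genes not counted. The same centring gave 4 h medians of -1.55 (all members), -1.17 (alpha), -1.17 (beta), -1.72 (immunoproteasome), -1.10 (ATPase) and -1.56 (non-ATPase), and -0.058 for alpha at 24 h. Reversed 4 h means were Psma1 -0.089, Psmb3 -0.34, Psmb5-ps -0.53, Psmc3 -0.44, Psmc4 -0.16, Psmd2 -0.45, Psmd8 -0.55 and Psme2b -0.72. Reversed differences between times were Psma3 0.68, Psmb5 0.41, Psmc3 0.73, Psmc6 0.043, Psmd14 0.0091 and Psmd2 0.057. Uncalled 4 h means also changed sign under that centring, among them Psma3 to -1.20, Psmc6 to -0.35, Psmb9 to -1.72 and Psme1 to -1.71. That of Psmb10 did so too, and under quantile normalization it went from 0.05 to -0.06. A 3-fold rule gave 6 higher and 1 lower at 4 h and 0 higher at 24 h. A 1.5-fold rule gave 5 higher at 24 h and 5 differences higher at 24 h, and quantile normalization 4 higher at 24 h. The cause was not tested. Shares of all genes were not counted under these settings or with single arrays, so these member counts have no background beside them. With the demands on spots added after seeing the data, 9 members were higher and 1 lower at 4 h under either, Psmg3 being lost: of 36 members with spots within 1 (7.27% of all genes higher, 5.43% lower) and of 45 with every spot 1.5-fold (5.93% and 4.26%). A single array lies within the spread of a pair by construction; it moved 25 of the 57 values by over 1.5 times, 10 at 4 h, 12 at 24 h and 3 differences (Psmb6, Psmb7 and Psmc6). With single arrays, 4 members (on either) were lower at 4 h, 0 to 1 lower at 24 h, and 4 to 5 higher at 24 h than at 4 h. Medians then ranged from 0.21 to 0.37 (all members), 0.41 to 0.70 (alpha), 0.35 to 1.12 (beta), 0.043 to 0.35 (immunoproteasome) and 0.24 to 0.64 (ATPase) at 4 h, and from 0.37 to 0.68 (beta), -0.049 to 0.38 (immunoproteasome), -0.056 to 0.11 (ATPase) and 0.066 to 0.37 (non-ATPase) at 24 h. With 2 arrays per time, differences near the spread between arrays were not detectable.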
